A study of Nicotiana tabacum with 78 samples.

Results

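The A622 genes of tobacco were represented by NITAB013664 and NITAB026459, both annotated as isoflavone reductase homolog A622 in Swiss-Prot and as phenylcoumaran benzylic ether reductase 3 by their best tomato match. They were chosen by gene identifier and make up 2 of the 2075 genes in the deposited expression table. The study sequenced total RNA from leaves and roots of *Nicotiana tabacum* TN90, a Burley cultivar used here without a transgene. It also sequenced 3 transgenic TN90 lines, PMT1, PMT2 and PMT3, that carry an RNAi construct against putrescine N-methyltransferase (PMT) under the constitutive 35S promoter. Plants at flowering were left untopped, or were topped, meaning that the flowering top was cut off, and tissue was taken 24 h later. The labels give 4 or 5 samples in each of the 16 groups made by 4 genotypes, 2 tissues and 2 treatments. Each PMT line is a single transgenic line, so an effect of the silencing and one of the line itself cannot be told apart.

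A622 encodes an NADPH-dependent reductase of the family that also holds isoflavone and pinoresinol reductases. It acts late in tobacco alkaloid synthesis, on the nicotinic acid side of the pathway, before the berberine bridge enzyme-like (BBL) oxidases, and tobacco with A622 suppressed makes little nicotine or anatabine. Alkaloids are made in the root and carried to the leaf, and removal of the flowering top is a classic way to raise their synthesis. PMT makes N-methylputrescine for the pyrrolidine ring of nicotine. Anatabine takes both of its rings from the pyridine side and does not need PMT.

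The expression values are RPKM, which scale the reads of a gene by its length and by the mapped reads of the library, and each is the authors' mean of a group. The deposited table pairs these means with no error. The study gives standard errors for its candidate genes, which were not used here, so the means below are printed without one, no test was run over samples, and whether neighbouring levels differ beyond their spread was not tested. A fold is the ratio of RPKM + 0.1 in 2 groups, and a gene was counted as higher or lower where the fold was at least 2 and either group reached 1 RPKM. The 2075 genes are those the authors had already called different in roots, and A622 was among the candidates they named from these data, so a count for A622 is no independent evidence of its direction. The authors allowed a read up to 10 matching places, and the A622 copies may share reads, so the split between them is uncertain while their sum is less so. RefSeq (assembly ASM71507v2) names a pair of tobacco genes A622 and A622L, but the identifiers of the deposited table were not among its names, and which copy is which was not assigned.

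The libraries listed by the authors held 22078414 to 150334394 reads in roots and 16299684 to 517291516 in leaves. Mapping ranged from 75.62% to 88.13% in 39 root libraries, and 1 topped PMT2 root library stood at 95.89%, within the leaf range of 85.39% to 96.67%. That group has 6 listed libraries against 5 samples in the labels. Topped TN90 leaves have 3 listed libraries against 4 samples in the labels. The leaf and root labels of 6 plants (4 PMT2 and 2 PMT3) disagree on whether the plant was topped, and whether this touches the authors' PMT2 and PMT3 means was not tested. By their root labels, these plants fall in both the untopped and the topped root group of each line. The summed level of the 10 leaf marker genes (chlorophyll a-b binding proteins, the small subunit of Rubisco and photosystem II 10 kDa proteins) was 86.2 to 196.6 RPKM in the root groups and 2658 to 4069 RPKM in the leaf groups. It was 164.6 RPKM in topped PMT2 roots, inside the range of the other root groups. For 7 of these 10 genes, the lowest leaf group exceeded the highest root group. Summed over those 7, topped PMT2 roots stood at 85.4 RPKM, within the root range of 47.8 to 120.8 RPKM. NITAB097766, a Rubisco small subunit gene among the 10, went the other way, at 9.34 to 40.2 RPKM in roots and at most 0.122 RPKM in leaves.

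Both A622 genes were root genes. In leaves, NITAB013664 lay between 0.0799 RPKM in topped PMT2 and 0.503 RPKM in untopped PMT2, with a median of 0.169 RPKM over the 8 leaf groups. NITAB026459 lay between 0.146 RPKM in untopped PMT3 leaves and 0.394 RPKM in untopped PMT2 leaves, with a median of 0.166 RPKM. No leaf group reached 1 RPKM, so no leaf pair could be counted as higher or lower on topping. Over all mapped reads of a library of median size, these leaf levels amount to roughly 4.49 to 27.2 reads per kilobase. In roots, the lowest level was 11.2 RPKM for NITAB013664 and 15.5 RPKM for NITAB026459, both in untopped PMT3, so every root group stood above every leaf group. In such bulk tissue, fewer cells that express a gene and less of its RNA per cell cannot be told apart.

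**Figure D1:**
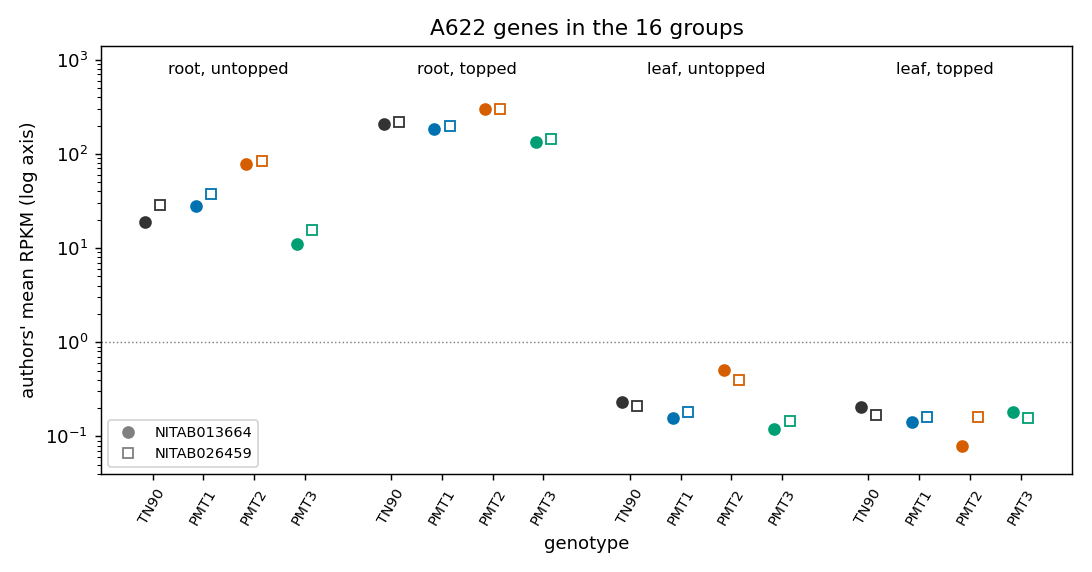
The authors' mean RPKM (log axis) of NITAB013664 (filled circles) and NITAB026459 (open squares) in the 16 groups, with the genotype on the horizontal axis and the dotted line at 1 RPKM. All 8 root groups lie at 11.2 RPKM or more and all 8 leaf groups at 0.503 RPKM or less.

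Root exceeded leaf in 16 of 16 pairs of an A622 gene with a genotype and treatment. On the RPKM + 0.1 scale, which understates ratios to such low leaf levels, the folds ran from 51.5 for NITAB013664 in untopped PMT3 to 1663 for the same gene in topped PMT2. The table itself is rich in root genes. The share of tested genes counted as higher in root was 75.4% in untopped and 84.7% in topped TN90, 80% and 83.2% in PMT1, 84.1% and 83.1% in PMT2, and 73.7% and 79.6% in PMT3, and 65.2% of genes were higher in all 8 root-leaf pairs. After centring, 92.7% to 96.4% of the calls being higher in root became 45.0% to 49.3%, and all 16 A622 pairs still passed, with folds of 8.24 for NITAB013664 in untopped TN90 to 179.8 for the same gene in topped PMT2. In topped roots its copies ranked 8 and 5 in TN90, 1 and 2 in PMT1, 1 and 5 in PMT2 and 5 and 2 in PMT3, for NITAB013664 and NITAB026459 in that order, out of 1950 to 1975 genes. In untopped TN90 the ranks were 87 and 28 of 1845, with folds of 58.3 and 91.9.

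Topping was followed by higher A622 in the roots of all 4 genotypes. In TN90, NITAB013664 stood at 19.1 RPKM in untopped and 205.6 RPKM in topped roots, and NITAB026459 at 28.3 and 217.2 RPKM. In PMT1 the levels were 27.9 and 185.5 RPKM for NITAB013664 and 37.1 and 200.1 RPKM for NITAB026459. In PMT2 they were 77.6 and 299.1 RPKM, and 85.0 and 296.3 RPKM. Both PMT2 groups were the highest of their treatment. In PMT3 they were 11.2 and 132.4 RPKM, and 15.5 and 142.9 RPKM, the lowest of each treatment. The lowest topped level of each gene thus lay above its highest untopped level. How many table genes show such a separation was not counted, so it is not shown to be particular to A622.

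**Figure D2:**
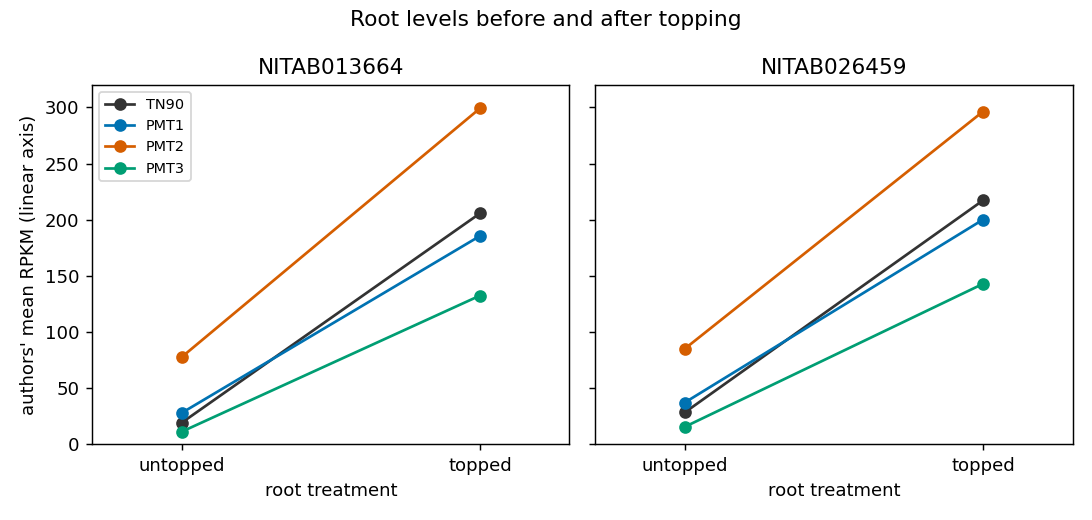
The authors' mean RPKM (linear axis from 0) in untopped and topped roots, with 1 line per genotype, for NITAB013664 on the left and NITAB026459 on the right. The lines of TN90 and PMT1 cross: PMT1 lies above TN90 in untopped roots (27.9 against 19.1 RPKM for NITAB013664) and below it in topped roots (185.5 against 205.6 RPKM).

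All 8 pairs of an A622 gene and a genotype passed the 2-fold threshold. The fold was 10.7 for NITAB013664 and 7.65 for NITAB026459 in TN90, where 47.3% of the 2001 tested genes also rose. It was 6.63 and 5.38 in PMT1, where 22.1% rose, and 3.85 and 3.48 in PMT2, where 12.7% rose. In PMT3 it was 11.8 and 9.18, where 27.9% rose. These shares count genes by the fold of group means alone. By their test in roots, the authors called fewer genes different on topping in TN90 than in each PMT line. Among tested genes, NITAB013664 ranked 15 in TN90, 40 in PMT1, 59 in PMT2 and 11 in PMT3, and NITAB026459 ranked 42, 57, 78 and 23. Both belonged to the 8.35% of genes (157 of 1881) counted as higher in every genotype. The median log2 fold of all tested genes was 0.93 in TN90, 0.47 in PMT1, 0.13 in PMT2 and 0.39 in PMT3. With every group centred at its table median, the A622 folds were 6.78 and 4.84 in TN90 and 3.39 and 3.07 in PMT2, and all 8 pairs still passed. That scaling takes the same amount from the log2 fold of every gene in a comparison, so it evens the split of calls by construction. Of the genes counted in either direction, the share counted as higher went from 88.2% to 46.5% in TN90 and from 84.7% to 45.6% in PMT1. It went from 80.9% to 64.1% in PMT2 and from 82.0% to 54.7% in PMT3. Without PMT2, the line with most contradictory labels, 6 of 6 pairs rose.

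Genotypes differed less in the RPKM gained than in the fold. The summed level of both copies went from 47.4 to 422.8 RPKM in TN90, a gain of 375.4 RPKM. The gain was 320.5 RPKM in PMT1, 432.9 RPKM in PMT2 and 248.6 RPKM in PMT3. PMT2 therefore had the smallest fold of the sum, 3.66, together with the largest gain, and PMT3 had the largest fold, 10.3, together with the smallest gain. Both of these lines hold plants with contradictory topping labels, whose part in these folds and gains was not tested. Across genotypes, the highest untopped level of NITAB013664 was 6.96 times the lowest, and the highest topped level 2.26 times the lowest. For NITAB026459 these ratios were 5.49 and 2.07.

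Relative to TN90, A622 passed the 2-fold threshold in untopped PMT2 roots and in no other root comparison of a line. There NITAB013664 was 4.04-fold and NITAB026459 2.99-fold above TN90, in a comparison where 39.7% of 2004 tested genes were also counted as higher and the median log2 ratio was 0.73. These pairs are 2 of the 6 pairs of a gene and a line in untopped roots, and without PMT2 the count is 0 of 4. Some plants of the untopped PMT2 root group have leaves labelled topped, and their part in these ratios was not tested. After centring, the ratios were 2.86 and 2.12, and the share of calls that were higher went from 81.6% to 48.1%. In untopped PMT1 the genes were 1.45-fold and 1.31-fold above TN90, where 9.43% of genes were counted as higher and the share of calls that were higher went from 74.0% to 54.4% on centring. In untopped PMT3 they stood at 0.585 and 0.548 of the TN90 level, short of the threshold, where 9.53% of genes were counted as lower and 6.12% as higher, and the share of calls that were higher went from 39.1% to 53.5% on centring. All 3 lines were set against the same TN90 value.

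In topped roots, 0 of 6 pairs passed the threshold in either direction. The ratio to TN90 was 0.902 and 0.921 in PMT1, 1.45 and 1.36 in PMT2, and 0.644 and 0.658 in PMT3, for NITAB013664 and NITAB026459. Of the tested genes, 4.29% were counted as higher in topped PMT1, 5.15% in PMT2 and 5.07% in PMT3, and 7.09%, 6.98% and 17.9% as lower. The median log2 ratio of all genes in topped PMT3 was -0.40, and after centring the A622 ratios there were 0.841 and 0.859, while the share of calls that were higher went from 22.1% to 52.0%. Without a test against the spread between libraries, these ratios do not show that A622 was equal in the lines and TN90.

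Both copies put the genotypes in the same order, PMT3, TN90, PMT1 and PMT2 from low to high in untopped roots, and PMT3, PMT1, TN90 and PMT2 in topped roots. The untopped order was shared by 25.8% of the 2075 genes. It was also that of 21 of the 33 other alkaloid candidates, which the authors named from these same data. The topped order was shared by 16.6% of genes and 16 of the 33 candidates. The order of all 8 root groups was that of A622 in 53 of the 1586 other genes that reached 5 RPKM in roots (3.34%), and in 12 of the 33 candidates. Highest untopped levels in PMT2 were common in the table, in 55.4% of genes.

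Set against the RNAi target, the sum of both A622 copies in topped roots was below the sum of the 5 PMT genes in TN90. It was above that sum in the lines. The 5 PMT genes summed to 842.0 RPKM in topped TN90 roots, and the A622 sum stood at 0.502 of that. By single gene, the A622 copies there, at 205.6 and 217.2 RPKM, lay below NITAB020971 (276.5 RPKM) and NITAB068133 (275.7 RPKM). They lay above NITAB068134 (146.5 RPKM), NITAB020972 (75.8 RPKM) and NITAB068130 (67.5 RPKM). In topped roots of PMT1, PMT2 and PMT3 the PMT genes summed to 53.9, 82.0 and 86.9 RPKM, and A622 was at 7.15, 7.26 and 3.17 times those sums. In untopped roots the ratio of the A622 sum to the PMT sum was 0.523 in TN90, 0.936 in PMT1, 4.41 in PMT2 and 0.933 in PMT3. On topping, all 5 PMT genes rose in TN90, by 7.56-fold to 13.5-fold. In PMT1, 0 of 5 PMT genes were counted as higher on topping and 1 as lower. In PMT2 and PMT3, 4 of 5 PMT genes rose in each, with median folds over the 5 genes of 2.63 and 3.71. Both A622 genes rose in all 3 lines.

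Among the other alkaloid candidates, A622 had some of the highest topping folds. Ranked with the 33 others, NITAB013664 was in place 3 in TN90, 1 in PMT1, 2 in PMT2 and 1 in PMT3, and NITAB026459 in places 7, 4, 3 and 2. Of the 33, 32 rose in TN90, 24 in PMT1, 24 in PMT2 and 27 in PMT3, with median folds of 4.79, 3.11, 2.37 and 4.18. The candidates above NITAB013664 were PMT genes in TN90 and, in PMT2, the cytochrome P450 NITAB053665 at 3.88-fold. That P450 also lay above NITAB026459 in TN90, at 8.03-fold, and in PMT1, at 6.24-fold.

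**Figure D3:**
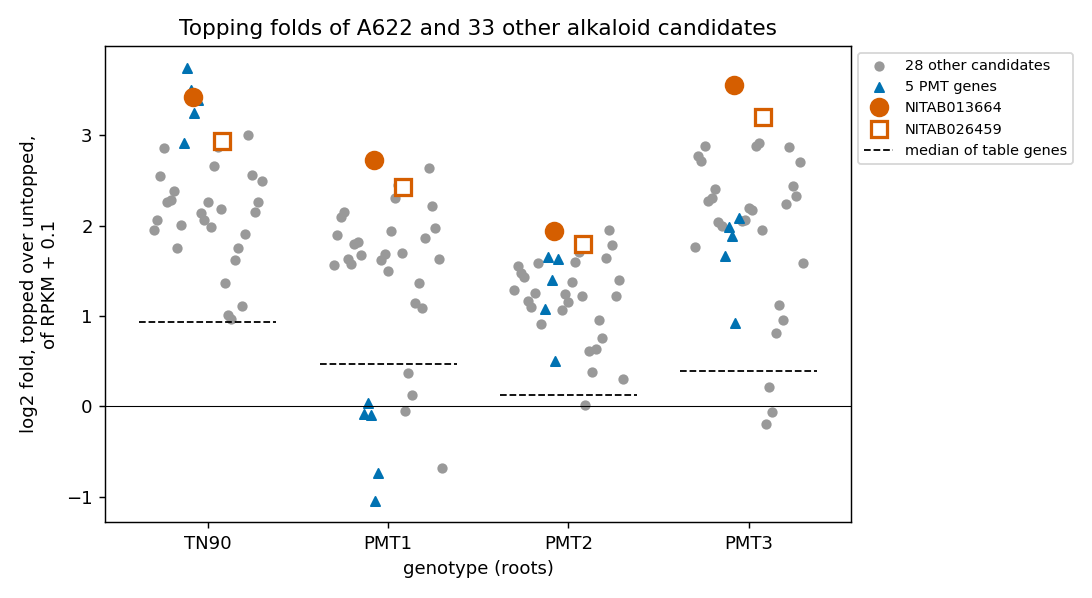
The log2 fold of RPKM + 0.1, topped over untopped, in the roots of each genotype for both A622 genes (orange), the 5 PMT genes (blue triangles) and the 28 other candidates (grey), with the median of the tested table genes as a dashed line. In PMT1 and PMT3 NITAB013664 is the highest point, and in PMT1 the PMT genes lie near or below 0.

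On the pyridine side, the aspartate oxidases NITAB045325 and NITAB079852, which start the ring, rose 5.86-fold and 7.24-fold in TN90 and 2.78-fold and 2.71-fold in PMT2. Quinolinate phosphoribosyltransferase (QPT), NITAB041007, which makes nicotinic acid mononucleotide, rose 5.20-fold in TN90 and 2.39-fold in PMT2. All 4 BBL genes, whose enzymes act after A622, rose in every genotype, by 3.95-fold to 7.29-fold in TN90 and by 2.34-fold to 3.26-fold in PMT2. The 3 amine oxidase genes of the methylputrescine oxidase family rose in every genotype too, by 4.18-fold to 4.80-fold in TN90. The spermidine synthases, which use putrescine for polyamines, differed from A622: 2 of 3 rose in TN90 and 0 of 3 in each PMT line. As for A622, the lowest median fold of the aspartate oxidase, quinolinate synthase, BBL and methylputrescine oxidase lists was the PMT2 one. The median log2 fold of all tested genes was lowest in PMT2 as well, at 0.13 against 0.39 to 0.93. A low fold in PMT2 is thus not particular to these lists.

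A single other gene of the isoflavone reductase-like family was in the table, NITAB023701. Its root levels ran from 43.6 RPKM in untopped TN90 to 94.2 RPKM in topped PMT1. Its topping fold was 1.34 in TN90, 1.43 in PMT1, 0.987 in PMT2 and 0.766 in PMT3, and it passed the threshold in 0 of the 4 genotypes. Its Pearson correlation with the A622 genes over the 8 root groups was 0.377 for NITAB013664 and 0.365 for NITAB026459.

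Genes with identifiers next to those of A622 carried a similar profile. NITAB013665 and NITAB026456, each annotated as DETOXIFICATION 38, a multidrug and toxic compound extrusion (MATE) transporter, have identifier numbers 1 above NITAB013664 and 3 below NITAB026459. Tobacco MATE proteins of this kind are known to carry nicotine into the vacuole of root cells. NITAB013665 went from 10.2 to 99.2 RPKM in TN90 roots, from 14.1 to 90.4 RPKM in PMT1, from 35.1 to 124.3 RPKM in PMT2 and from 4.91 to 60.2 RPKM in PMT3. NITAB026456 went from 14.0 to 103.3, 18.4 to 91.6, 39.4 to 127.9 and 7.84 to 66.0 RPKM in the same genotypes. Like A622, both MATE genes stayed under 1 RPKM in every leaf group, with highest leaf levels of 0.185 and 0.106 RPKM. In RefSeq's gene order, A622 is the direct coding neighbour of NtMATE1 and A622L that of NtMATE2. Table identifiers were not matched to these names, so the neighbourhood in the table rests on the identifier numbers.

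The remaining identifier neighbours were less uniform. NITAB013663, a beta-glucosidase 47 homolog, rose 14.1-fold in TN90, 9.82-fold in PMT1, 5.45-fold in PMT2 and 18.9-fold in PMT3, a larger fold than that of either A622 gene in each genotype. The unannotated genes NITAB013666 and NITAB026457 were low, at 0.222 to 16.03 RPKM and 0.577 to 17.2 RPKM in roots, and both rose in every genotype. NITAB026467, a spermidine synthase 8 identifier numbers above NITAB026459, rose in TN90 by 2.58-fold and stood at folds of 0.969, 1.01 and 0.875 in PMT1, PMT2 and PMT3. Of the 3 MATE genes in the table, the third, NITAB051257, was at 80.9 to 124.3 RPKM in leaves, unlike A622, and rose 2.31-fold in TN90 roots. Its topping fold was 1.33 in PMT1, 0.714 in PMT2 and 1.24 in PMT3, none past the threshold.

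The balance of the copies moved with topping. NITAB026459 was the higher copy in 7 of 8 root groups, by 4.33 to 14.6 RPKM, and was lower by 2.82 RPKM in topped PMT2. The ratio of NITAB013664 to NITAB026459 went from 0.675 in untopped to 0.947 in topped TN90 roots, from 0.751 to 0.927 in PMT1, from 0.913 to 1.01 in PMT2 and from 0.721 to 0.927 in PMT3. It was higher after topping in 4 of 4 genotypes. The untopped ratio nearest to a topped one was that of PMT2, the genotype with the highest untopped level. The neighbouring MATE pair did the same, with NITAB013665 over NITAB026456 going from 0.729 to 0.960 in TN90, 0.766 to 0.987 in PMT1, 0.891 to 0.972 in PMT2 and 0.627 to 0.912 in PMT3. The pair of quinolinate synthase genes, NITAB063722 over NITAB074182, lay between 1.18 and 1.24 in all root groups, and its topped ratio was 0.976 to 1.05 times its untopped one. The pair of aspartate oxidase genes, NITAB045325 over NITAB079852, moved the other way in TN90, from 0.973 to 0.788, and its topped ratio was 0.964 times its untopped one in PMT1, 1.03 times in PMT2 and 0.888 times in PMT3. The pairs set beside the A622 copies were chosen after their values were seen, and other copy pairs were not compared. Whether reads shared between copies contribute to these ratios was not tested.

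**Figure D4:**
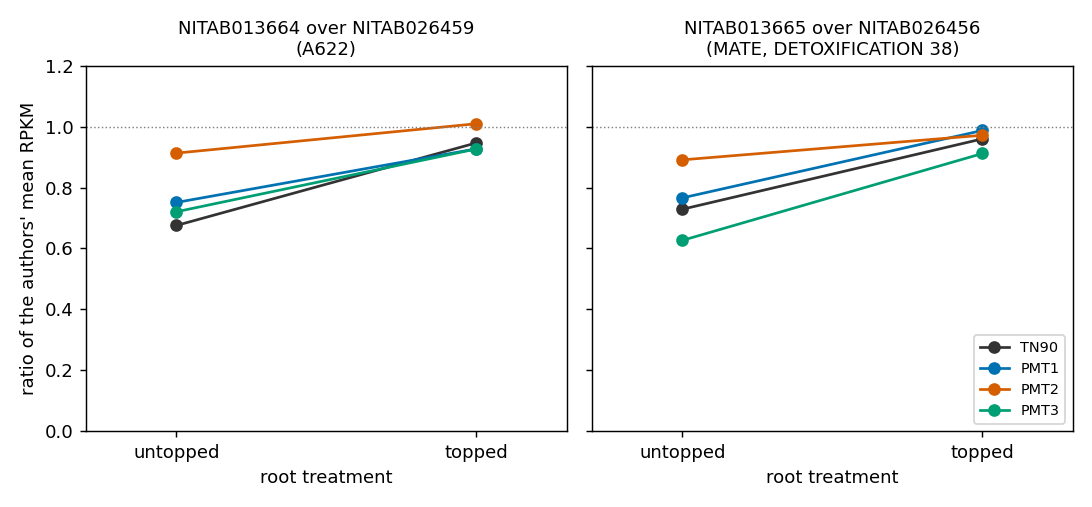
The ratio of the authors' mean RPKM of the copies in untopped and topped roots, with 1 line per genotype and the dotted line at equal levels, for the A622 pair on the left and the MATE pair on the right. All 8 lines go up on topping, and PMT2 starts highest in both panels (0.913 and 0.891).

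Likeness to A622 was taken as the lower of a gene's Pearson correlations with NITAB013664 and NITAB026459, on log2(RPKM + 0.1) over the 8 root groups. These 8 points share libraries with every gene compared and fall into an untopped and a topped cluster, so the values are a description. Among 1586 genes that reached 5 RPKM in a root group, the median was 0.635, and 255 (16.1%) reached 0.9, among them 24 of the 33 alkaloid candidates. The authors named these candidates from the same root data, so their share is no independent evidence of likeness. The copies correlated with each other at 0.999. The 10 genes most like A622 lay between 0.998 and 0.999, and the next gene differed from the tenth by less than the third decimal, so the border between them is arbitrary.

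The 10 genes were of mixed annotation. Known alkaloid enzymes among them were the BBL gene NITAB049634, the quinolinate synthase NITAB063722 and the aspartate oxidase NITAB045325. The MATE genes NITAB026456 and NITAB013665 were in places 5 and 7. NITAB019290, a second beta-glucosidase 47 homolog, went from 9.04 to 86.2 RPKM in TN90 roots, a fold of 9.45. NITAB009262, in the first place, has no Swiss-Prot name and went from 7.18 to 40.7 RPKM. NITAB009383, annotated as 7-deoxyloganetic acid glucosyltransferase, went from 6.44 to 23.2 RPKM. NITAB049635, whose identifier follows that of the BBL gene NITAB049634, went from 9.85 to 68.9 RPKM beside 9.54 to 70.2 RPKM for NITAB049634. NITAB087957 has no Swiss-Prot name and went from 4.59 to 19.3 RPKM. The PMT genes were far down the list, with likeness values of 0.205 to 0.633, as were the spermidine synthases with 0.241 to 0.535.

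**Figure D5:**
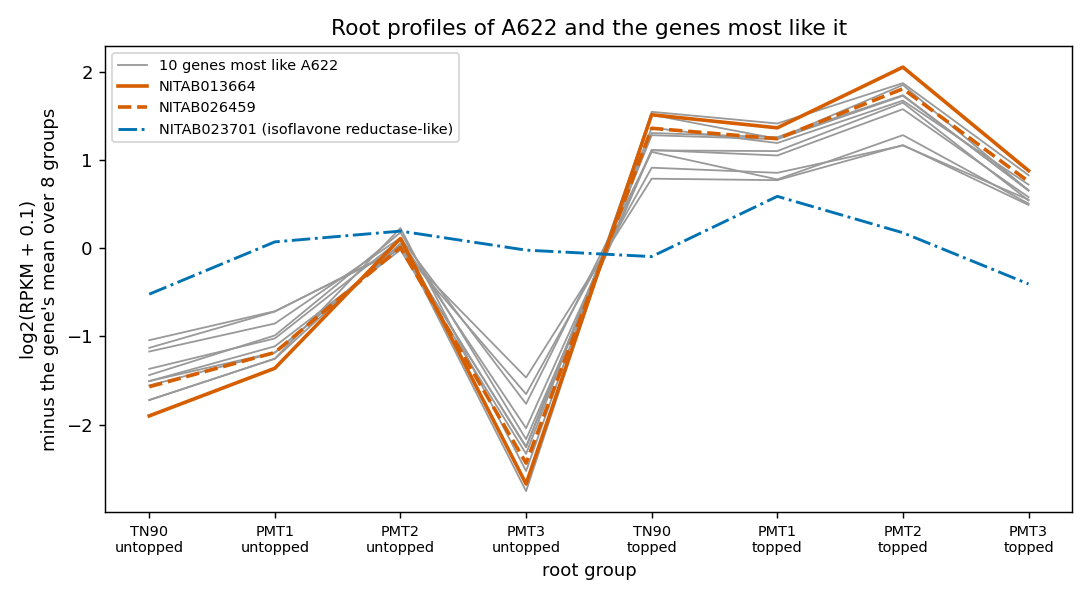
The log2(RPKM + 0.1) of each gene minus its own mean over the 8 root groups, for both A622 genes (orange), the 10 genes most like them (grey) and NITAB023701, the other isoflavone reductase-like gene (blue). The grey and orange lines share a high point at untopped PMT2 among untopped groups and a low point at PMT3 in both treatments. The blue line is also highest at PMT2 among untopped and lowest at PMT3 among topped groups, but its lowest untopped level is in TN90 (43.6 RPKM) and its highest topped level in PMT1 (94.2 RPKM).

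Since topping separates the groups, the likeness was also taken after the mean of each treatment was removed from each gene. Then 7 of the 10 genes remained among the first 10. The values were 0.998 for NITAB009262, 0.997 for NITAB045325 and 0.996 for NITAB049634, and those of the PMT genes fell between -0.109 and 0.185. High values were common after this step: the alkaloid candidate NITAB004477, at 0.891, was in place 390 of 1586 genes. PMT2, whose labels are in doubt, was the highest of the 4 genotypes in both treatments. Without it, 8 of the 10 genes remained among the first 10.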

How the data were processed

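The authors mapped paired reads from stranded total RNA libraries to a tobacco genome with Qiagen CLC Workbench 11.0.1 and its tool for RNA-Seq, version 2.16 (similarity 0.95, length fraction 0.95, up to 10 hits per read, each read of a pair counted). The authors deposited RPKM for 2075 genes as means of 16 groups. The authors had selected these genes by edgeR's exact test in roots (p of at most 0.05, fold of at least 2). The authors also deposited, per library, the read count and the percent of reads mapped. Groups followed sample titles and treatment labels, and 1 of 78 samples, a PMT2 sample titled as leaf but tagged as root, was left unassigned. Tissue tags and descriptions of many samples contradict their titles. The deposited tables name no single samples, so no test was run.

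Folds were differences of log2(RPKM + 0.1). A gene was counted at 2-fold or more with at least 1 RPKM in either group. Genes named were the A622 genes, the 33 other alkaloid candidates of the study, table genes with identifier numbers within 10 of an A622 gene, the isoflavone reductase-like family by annotation, and the 10 genes most like A622. NITAB051257 was named after its values were seen, as were the pairs set beside the A622 copies. Members and lists were chosen with earlier results of these data known. The counting step was tried on simulated 4-fold changes, and the correlation step on a planted copy of an A622 profile. These check the code only. All steps ran in Python 3.11.15 with pandas 2.3.3, numpy 2.4.6 and, for plots, matplotlib 3.10.9. Alternatives were other pseudocounts, minimums, thresholds, centred columns and other likeness measures. Sequences were not used here.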

Additional observations from a re-analysis of the deposited data

Results flagged for a closer look

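The library totals behind the root means were examined for single libraries that stand apart, in 16 sets of values (reads and percent mapped in 8 root groups). By chance about 1 such set in 20 would be marked. In untopped PMT2 roots, 1 of 5 listed libraries held 138184962 reads against 28573994 to 46396138 in the others. In untopped PMT3 roots, 1 of 4 listed libraries had 86.34% of reads mapped against 80.67% to 81.63% in the others. These are the groups with the highest and the lowest untopped A622 levels. The deposited A622 values are group means, so neither library could be left out, and their part in the A622 levels was not tested.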

How the results depend on the processing

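No paired analysis was possible because the group columns carry no replicate numbers, and leaving out single replicates could not be done on group means. Counts were retaken with other pseudocounts (0.01 and 1), no minimum, a minimum of 5 RPKM, a 4-fold threshold and centred columns. Leaving out PMT2 was chosen after seeing the data. Under these, the counts of A622 pairs that rose on topping and that were higher in root than leaf stayed within 1.5 times. The root over leaf count had little room to change, since its lowest fold was 51.5. The count above TN90 in topped roots was 0 in every setting. The lowest count of rises on topping was 6 of 8 at 4-fold, where both PMT2 pairs were lost. The count above TN90 in untopped roots was 2 of 6, and went to 1 at 4-fold and to 0 of 4 without PMT2. Of 24 topping folds under alternatives, 22 stayed within 1.5 times. The exceptions were the TN90 log2 folds with centred columns, 2.76 for NITAB013664 and 2.28 for NITAB026459 against 3.42 and 2.93. All 36 ratios to TN90 and all 16 copy ratios stayed within 1.5 times, and none of these values reversed. Of the 10 genes most like A622, 3 were among the first 10 by Spearman's rho, where 53 genes tied in the first place, all 10 among them. With centred columns it was 6, and over 16 groups 5. Leaf values rest on few reads, and the replicate error of the means was not used here. Centring lowered the root to leaf folds from between 51.5 and 1663 to between 8.24 and 179.8.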
